A study of Homo sapiens with 3 samples.

Results

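The 9 genes described here are the 3 members of the GADD45 family (GADD45A, GADD45B and GADD45G) and 6 genes known as p53 or stress targets (MDM2, PPP1R15A, BTG2, SESN1, PLK2 and PLK3). They were chosen by name out of the 36601 genes counted, with earlier values of the same libraries in view, so their levels in the 3 libraries are a description and not a test. The cells were OVCAR3, an established human cell line from a high-grade serous ovarian carcinoma. One culture received the solvent DMSO, another 50 μM of the RAC1 inhibitor NSC23766 (RAC1i), and another 50 μM of NSC23766 with 5 μM of the EZH2 inhibitor GSK126 (Combo), each for 48 h, and each gave 1 library of single-cell RNA. NSC23766 keeps the small GTPase RAC1 from being activated, and GSK126 blocks the histone methyltransferase EZH2. With 1 library per condition there were no replicates, so no test between conditions was possible, and every interval below is a 95% interval that covers counting error only. The library of GSK126 alone was not analysed here.

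GADD45 proteins are small acidic proteins without known enzyme activity that bind other proteins, among them the kinase MAP3K4 upstream of p38 and JNK, the replication clamp PCNA and the CDK1 and cyclin B complex. GADD45A is the classical p53-induced member, whereas GADD45B is known as an early response to cytokines and NF-κB. PPP1R15A, also called GADD34, carries protein phosphatase 1 to eIF2α and restores translation late in the integrated stress response, and MDM2 is the ubiquitin ligase that p53 induces and that degrades p53. BTG2 is an antiproliferative p53 target that recruits mRNA deadenylation, SESN1 is a sestrin that restrains mTORC1, and PLK2 and PLK3 are polo-like kinases induced by serum and by stress.

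RefSeq promoter windows were found for 8 of the 9 genes, not for GADD45A, and stretches of 5 of them are shown because these genes gave the contrasts described below: GADD45B, GADD45G and PPP1R15A were higher in both treated libraries, MDM2 was lower, and PLK2 set Combo apart from RAC1i. All are on the plus strand of GRCh38.p14 except PLK2, and each is written 5′ to 3′ along the gene. They lie at chr19:2475877-2476121 (GADD45B), chr9:89604762-89605011 (GADD45G), chr12:68808767-68809001 (the inner promoter of MDM2, which is the one known to answer p53), chr19:48872352-48872381 (PPP1R15A, within the first exon of a longer annotated transcript) and chr5:58460199-58460228 (PLK2). The first 4 lie, in this order, upstream of RefSeq start sites at 2476127, 89605012, 68809017 and 48872421, and that of PLK2 is at 58460086. Capitals mark the E-box (CACGTG), the CCAAT box, the TATA box (TATAAA), the AP-1 motif (TGANTCA) and the cyclic AMP response element or CRE (TGACGTCA) on either strand, and for PLK2 a match to the p53 decamer consensus.
GADD45B: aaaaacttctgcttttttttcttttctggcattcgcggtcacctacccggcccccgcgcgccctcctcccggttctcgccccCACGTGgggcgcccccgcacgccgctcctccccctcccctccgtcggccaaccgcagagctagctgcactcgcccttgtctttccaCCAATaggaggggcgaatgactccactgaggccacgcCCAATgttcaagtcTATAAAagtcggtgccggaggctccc
GADD45G: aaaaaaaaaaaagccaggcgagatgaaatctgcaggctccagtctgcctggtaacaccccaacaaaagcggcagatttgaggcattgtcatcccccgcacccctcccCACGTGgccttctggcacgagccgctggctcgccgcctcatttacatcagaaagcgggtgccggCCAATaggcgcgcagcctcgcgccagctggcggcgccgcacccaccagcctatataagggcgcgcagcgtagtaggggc
MDM2: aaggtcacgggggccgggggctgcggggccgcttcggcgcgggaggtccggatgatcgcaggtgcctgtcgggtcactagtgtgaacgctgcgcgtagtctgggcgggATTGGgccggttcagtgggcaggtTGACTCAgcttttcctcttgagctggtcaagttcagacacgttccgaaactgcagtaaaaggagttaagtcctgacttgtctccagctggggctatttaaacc
PPP1R15A: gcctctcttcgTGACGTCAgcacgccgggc
PLK2: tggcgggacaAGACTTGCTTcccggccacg

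GADD45B and GADD45G shared the E-box and the CCAAT box in the same order. The E-box began at position -168 in GADD45B and -143 in GADD45G, counted from the start site, and the outer CCAAT box at -82 and -79. Over all 35114 promoter windows of 250 bases in the RefSeq table, 6.35% held CACGTG on either strand and 32.0% held CCAAT, so the CCAAT box is common and the E-box is not. PPP1R15A was the only one of the 8 genes with a full CRE, which 1.65% of all windows held, and its shorter form TGACG, which overlaps the CRE, was in 21.2%. TATAAA stood at -31 in GADD45B and at -30 in PPP1R15A and was in 10.7% of windows. The AP-1 motif of MDM2 was in 6.57%. The p53 decamer consensus, in 5.57% of windows, had an exact match in the windows of PLK2 and SESN1. The NF-κB consensus, in 5.21%, had none in the 8 genes. An absence, also that of the p53 decamer from the MDM2 stretch, says only that no exact match is in these windows. Near matches were not searched, so it does not show that a gene lacks a p53 site. The matches describe the sequences and were not tested as binding sites.

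After the limits on cells (over 1000 genes, at most 20% mitochondrial UMIs, complexity over 0.8), the libraries kept 7531 (DMSO), 10215 (RAC1i) and 8239 (Combo) cells, with 199063947 to 234969742 unique molecular identifiers (UMIs) per library. The median cell held 26750 UMIs (DMSO), 20989 (RAC1i) or 24953 (Combo), and the median mitochondrial share was 5.60%, 1.66% and 1.58%. Kept cells shared 15 to 23 barcodes between any pair of libraries. Of 7 markers of serous epithelium, 7, 7 and 6 passed 10 CPM (UMIs scaled to a library total of 1000000) in DMSO, RAC1i and Combo, with a summed level of 3530, 1893 and 2088 CPM. No marker of leukocytes (3), fibroblasts (4) or endothelium (3) passed 10 CPM in any library, and their summed levels were at most 5.78 CPM per list. The lower summed epithelial level moved with treatment, and its part in the results was not tested. Transcripts of the inhibited proteins were at 462, 590 and 577 CPM (RAC1) and 32.1, 12.4 and 15.2 CPM (EZH2) in the same order, which does not measure inhibition.

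All 3 GADD45 genes were higher in both treated libraries than in DMSO, under every alternative processing tried. GADD45B (ENSG00000099860, chromosome 19, 2476122 to 2478259) stood at 12.9 CPM in DMSO (12.4 to 13.4), 622 CPM in RAC1i (619 to 626) and 575 CPM in Combo (571 to 578). The treated libraries were thus both far above DMSO, 48.3 times in RAC1i (46.5 to 50.3) and 44.6 times in Combo (42.9 to 46.4). Ranked by the log2 ratio of CPM plus 1, GADD45B was number 5 of the 8778 genes that reached 10 CPM in either library for RAC1i over DMSO, and number 8 of 8745 for Combo over DMSO.

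GADD45G (chromosome 9, 89605012 to 89606555) was at 1.58 CPM in DMSO (1.41 to 1.77), 18.3 CPM in RAC1i (17.8 to 18.9) and 18.5 CPM in Combo (17.9 to 19.1). Its 2 treated levels overlapped within their intervals, and its ratio to DMSO was 11.6 in RAC1i (10.3 to 13.0) and 11.7 in Combo (10.4 to 13.1). GADD45A (chromosome 1, 67685201 to 67688334) measured 52.9 CPM in DMSO (51.9 to 53.9), 191 CPM in RAC1i (189 to 193) and 152 CPM in Combo (151 to 154). Its ratio to DMSO was 3.61 in RAC1i and 2.88 in Combo, and Combo lay below RAC1i with a ratio of 0.799 (0.788 to 0.811). GADD45A therefore had the smallest fold of the family in both treated libraries and was the only member of the family for which Combo over RAC1i departed from 1 by more than 10%.

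PPP1R15A (chromosome 19, 48872212 to 48876059) followed the GADD45 genes. It was at 18.9 CPM in DMSO (18.3 to 19.5), 183 CPM in RAC1i (181 to 184) and 177 CPM in Combo (175 to 179), which is 9.66 times DMSO in RAC1i (9.34 to 9.99) and 9.36 times in Combo (9.05 to 9.68). Its paralog PPP1R15B, the constitutive phosphatase subunit for eIF2α, was also higher, at 35.0 (DMSO), 75.2 (RAC1i) and 59.2 CPM (Combo).

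MDM2 (chromosome 12, 68808177 to 68845544) went the other way. It measured 36.2 CPM in DMSO (35.3 to 37.0), 25.1 CPM in RAC1i (24.4 to 25.7) and 22.2 CPM in Combo (21.6 to 22.9). Both treated levels lay below DMSO, with ratios of 0.693 (0.670 to 0.717) and 0.614 (0.592 to 0.637), neither of which reached 2-fold. The median gene was itself lower by these counts, with a log2 ratio of CPM plus 1 of -0.20 for RAC1i and -0.17 for Combo. Computed without the added 1, MDM2 lay 0.33 and 0.52 log2 units below the median gene. Its partner and paralog MDM4 was instead higher, at 37.2 (DMSO), 58.9 (RAC1i) and 51.9 CPM (Combo).

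PLK2 (chromosome 5, 58453982 to 58460139, minus strand) was the gene of the set that differed most between the treated libraries. It stood at 144 CPM in DMSO (142 to 146), 182 CPM in RAC1i (180 to 183) and 111 CPM in Combo (110 to 113). RAC1i was thus above DMSO and Combo below it, with ratios of 1.26 (1.24 to 1.28) and 0.773 (0.760 to 0.787). Combo over RAC1i was 0.613 (0.603 to 0.623), which ranked it number 7432 of 7443 genes from the highest ratio to the lowest. PLK3 (chromosome 1, 44800377 to 44805990), at 7.83 CPM in DMSO (7.45 to 8.23), 3.79 CPM in RAC1i (3.55 to 4.05) and 3.62 CPM in Combo (3.37 to 3.88), was lower in both, with ratios of 0.484 and 0.462. The size of the PLK3 difference depended on the weight given to shallow cells: as a mean over cells, the log2 ratio was -0.34 in RAC1i and -0.31 in Combo, against -1.05 and -1.11 for the summed UMIs. PLK1, the mitotic kinase of the same family, was at 33.6, 32.8 and 30.7 CPM in the 3 libraries.

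BTG2 (chromosome 1, 203305491 to 203309602) was also lower in both, at 6.14 CPM in DMSO (5.80 to 6.49), 2.10 CPM in RAC1i (1.92 to 2.30) and 2.65 CPM in Combo (2.43 to 2.87). Its ratio to DMSO was 0.342 (0.308 to 0.381) in RAC1i and 0.431 (0.389 to 0.477) in Combo. SESN1 (chromosome 6, 108984309 to 109094846, minus strand) differed least, with 3.52 CPM in DMSO (3.26 to 3.79), 3.16 CPM in RAC1i (2.93 to 3.39) and 3.37 CPM in Combo (3.13 to 3.63). Its ratio to DMSO was 0.898 (0.809 to 0.997) in RAC1i and 0.960 (0.863 to 1.07) in Combo. Its paralog SESN3, another sestrin, was at 17.6 (DMSO), 3.50 (RAC1i) and 4.73 CPM (Combo), and SESN2 was at 12.8, 10.4 and 13.2 CPM.

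**Figure D1:**
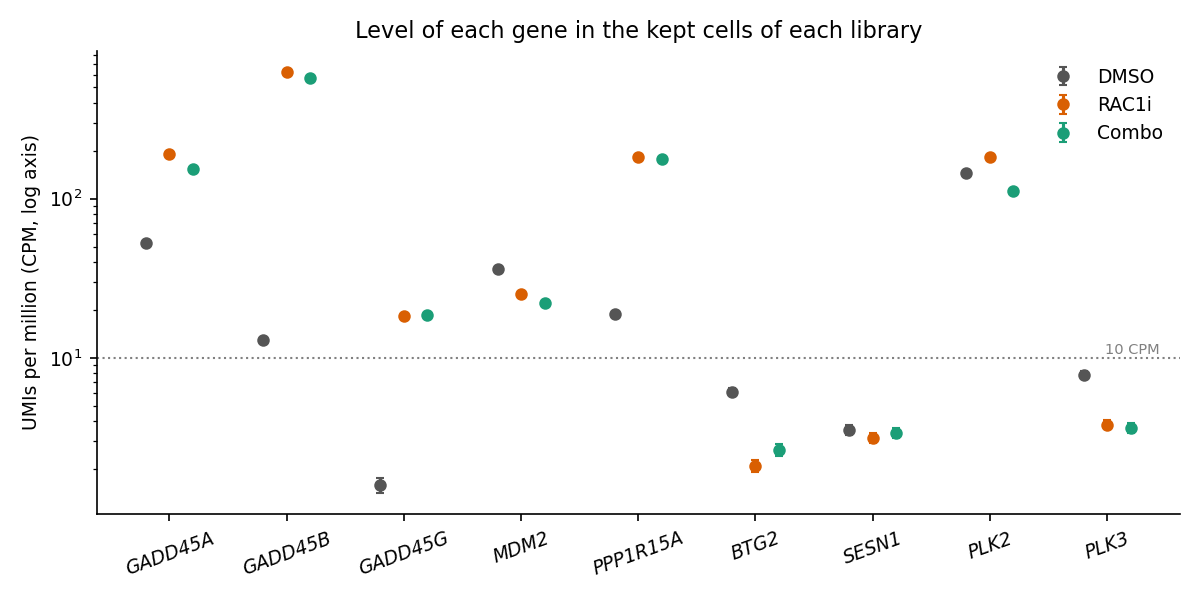
Level of each of the 9 genes in CPM (log axis) in the kept cells of DMSO, RAC1i and Combo; bars are 95% Poisson intervals and are often smaller than the points. GADD45A, GADD45B, GADD45G and PPP1R15A sit higher in both treated libraries, MDM2, BTG2 and PLK3 lower, and PLK2 at 182 CPM (RAC1i) and 111 CPM (Combo).

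Of the 9 genes, 6 reached 10 CPM in some library, and BTG2, SESN1 and PLK3 did not. For RAC1i over DMSO, 4 of these 6 (GADD45A, GADD45B, GADD45G and PPP1R15A) were at least 2-fold higher, where 13.1% of all genes compared were, and 0 were at least 2-fold lower, where 24.6% were. For Combo over DMSO the counts were the same 4 and 0, against 11.8% and 22.8% of all genes. For Combo over RAC1i, 0 were at least 2-fold higher or lower, against 0.0269% and 0.0134% of all genes. Since the genes were chosen with these levels in view, the 4 describe the choice and nothing more is read from the count. RAC1i and Combo were both compared with the same DMSO library.

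**Figure D2:**
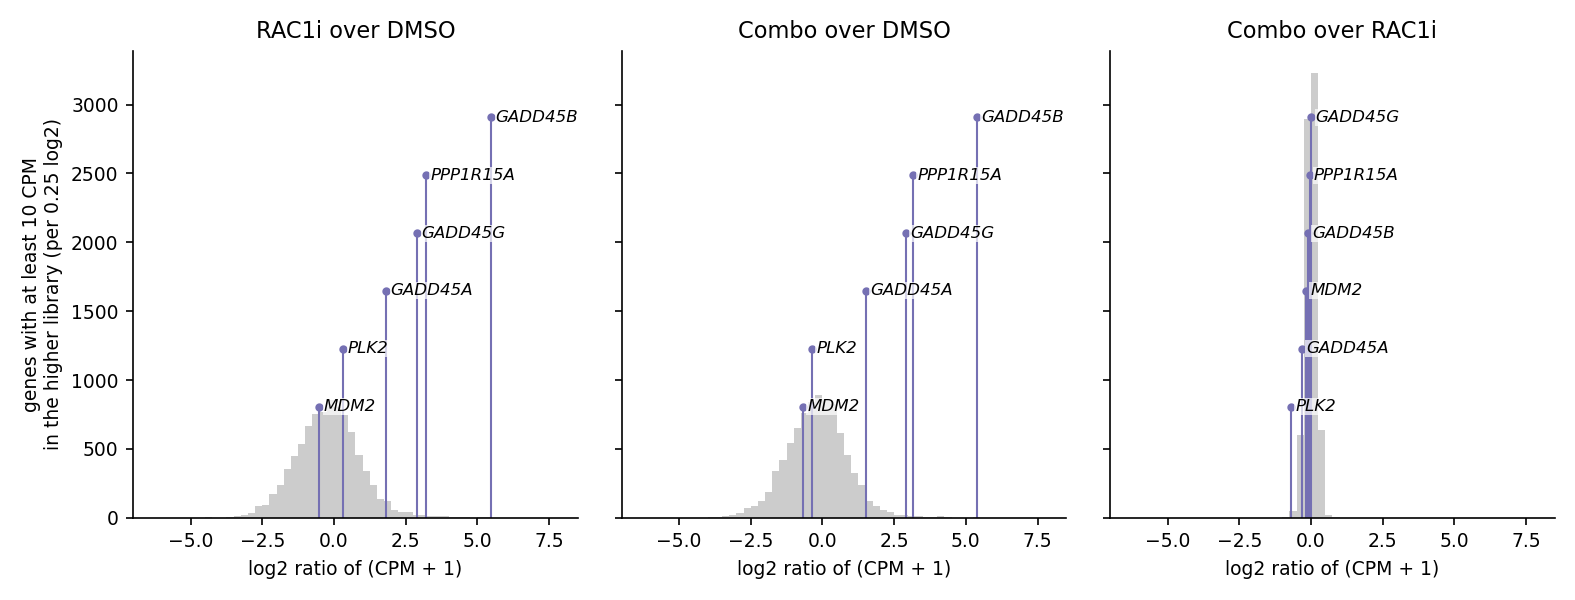
Distribution of the log2 ratio of CPM plus 1 over all genes that reached 10 CPM in either library (grey, genes per 0.25 log2 units) for the 3 pairs of libraries, with the 6 genes that reach 10 CPM marked (the height of a marker has no meaning). GADD45B lies at the far right of both comparisons with DMSO, and PLK2 at the left edge of Combo over RAC1i.

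Other genes known as p53 targets differed in both directions. Over all genes, 13.1% were at least 2-fold higher and 24.6% lower in RAC1i, and 11.8% and 22.8% in Combo. Of 30 other genes known as p53 targets, 22 reached 10 CPM, and 10 of these were at least 2-fold lower in RAC1i and 3 were at least 2-fold higher, with a median log2 ratio of -0.71 against -0.20 over all genes. In Combo, 10 were lower and 2 higher, with a median of -0.77 against -0.17. Among those that reached 10 CPM, TP53INP1, a p53-induced nuclear protein, had the lowest ratio. It went from 59.5 CPM under DMSO to 3.68 under RAC1i and 3.50 under Combo. AEN, an apoptotic nuclease, had the highest ratio among them, from 2.64 to 11.6 and 11.4 CPM. BAX, the pore-forming apoptosis protein, went from 59.7 CPM under DMSO to 13.5 under RAC1i and 17.5 under Combo. CDKN1A (p21), the best known p53 target, was close to absent in DMSO with 0.422 CPM (0.337 to 0.522) and reached 5.79 CPM in RAC1i (5.49 to 6.11) and 9.83 CPM in Combo (9.41 to 10.3), so it stayed under 10 CPM. Among 13 measured regulators of p53, 1 was at least 2-fold higher in each treated library, the phosphatase PPM1D, which is itself a p53 target (9.45 (DMSO), 32.0 (RAC1i) and 30.3 CPM (Combo)), and 4 were lower, with HIPK2 the lowest ratio. Counts this small lie near the shares of all genes, as does the count of p53 targets that were higher.

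Other lists of stress genes were counted in the same way. Of 11 measured NF-κB targets, 10 were at least 2-fold higher in RAC1i (median log2 ratio 2.91) and 9 in Combo (2.05), from TNF with log2 ratios of 4.80 and 4.14 to the mitochondrial dismutase SOD2 with 0.16 and 0.13. Of 18 early response genes, 8 were higher and 3 lower in RAC1i, and 9 higher and 3 lower in Combo, with the stress factor ATF3 at the top (5.37 CPM in DMSO, 120 CPM in RAC1i). EGR1 (RAC1i) and FOSB (Combo), which answer serum within minutes, had the lowest ratios. Of 16 measured genes of the eIF2α stress response, 3 were higher (ATF3, DDIT3 and ATF4, the last 2 named after their values were seen) in RAC1i and 5 lower, the cystine transporter SLC7A11 the most, at 26.0 CPM in DMSO and 0.992 CPM in RAC1i. In Combo, 3 were higher and 4 lower. The other 4 that were lower in RAC1i, named after their values were seen, were the serine synthesis enzymes PHGDH (325 to 38.9 CPM) and PSAT1 (123 to 15.3 CPM), the glutathione-degrading CHAC1 (12.3 to 0.970 CPM) and DDIT4 (41.3 to 14.2 CPM), an inhibitor of mTORC1. The remaining 8 of the 16 were within 2-fold in RAC1i. Over all genes, 13.1% were higher and 24.6% lower in RAC1i, and 11.8% and 22.8% in Combo. The counts of the eIF2α stress response lie near these shares, so nothing is read from them.

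Of 12 measured genes whose proteins bind or act with GADD45, 0 were at least 2-fold higher in either treated library and 2 were lower, with MAP2K3, a kinase for p38, at the top (log2 ratio 0.83 in RAC1i and 0.95 in Combo) and MAP2K6, also a kinase for p38, at the bottom (-2.74 and -2.71). These counts give shares under those of all genes that were higher (13.1% and 11.8%) or lower (24.6% and 22.8%), and nothing is read from them. Of 10 measured paralogs of the 9 genes, PPP1R15B was at least 2-fold higher and SESN3 at least 2-fold lower in RAC1i, and only SESN3 passed 2-fold in Combo. BTG1, the closest paralog of BTG2, was at 71.3, 44.8 and 51.1 CPM in DMSO, RAC1i and Combo. All 9 other markers of the study's cluster of cell differentiation and development (CDD), which also lists GADD45B, were at least 2-fold higher in both (median log2 ratio 3.02 and 3.11), and MT2A, a metallothionein, had the largest ratio. The study chose that list on these samples, so it is not independent evidence of a direction. None of 20 mitotic genes and none of 20 DNA synthesis genes was at least 2-fold higher, and 5 and 9 were lower in RAC1i (4 and 8 in Combo). For the mitotic genes that is near the share of all genes that were lower, 24.6% in RAC1i and 22.8% in Combo.

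Cells were next compared one by one, after each was thinned at random to 5000 UMIs so that depth did not set the share of cells with a UMI. This left 6725, 9200 and 7354 cells, without 806, 1015 and 885 shallower cells. Of these, a GADD45B UMI was found in 5.99% under DMSO (5.44 to 6.59%), in 76.7% under RAC1i (75.8 to 77.5%) and in 74.6% under Combo (73.6 to 75.6%). Without thinning the shares were 22.7%, 92.5% and 92.2%. Summed over the barcodes that failed the limits on cells, GADD45B was at 653 (RAC1i) and 524 CPM (Combo). The deeper of these barcodes weigh most in such a sum, and the part of free RNA in the shares was not tested. Cells with a GADD45B UMI also held more of it in the treated libraries, at 1.13 UMIs per positive cell under DMSO, 4.89 under RAC1i and 4.91 under Combo. Before thinning a single RAC1i cell held 254 GADD45B UMIs.

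GADD45B was spread unevenly over the treated cells. In RAC1i the mean was 3.75 UMIs per thinned cell and 23.3% of cells held none, where a Poisson distribution of that mean gives 2.35%. At the other end, 9.59% of RAC1i cells held 10 or more. The variance over the mean was 4.84 in RAC1i and 5.04 in Combo, and 1.29 in DMSO at a mean of 0.0678 UMIs. That ratio grows with the mean, so it does not show a wider relative spread under treatment. MDM2 was close to Poisson in every library (1.01, 1.05 and 1.06). Its means were only 0.175, 0.128 and 0.120 UMIs, too low for these ratios to show that it was spread evenly.

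For PPP1R15A, 8.24% of thinned cells were positive in DMSO, 55.0% in RAC1i and 54.1% in Combo, and without thinning 32.5%, 84.1% and 85.2%. GADD45A was in 21.4%, 55.9% and 48.8% of thinned cells (57.8%, 85.8% and 82.8% without thinning). GADD45G was in 0.907%, 9.01% and 9.08% (3.82%, 25.4% and 27.3% without thinning). These shares followed the levels, with Combo below RAC1i for GADD45A. PLK2 was in 44.1% of thinned cells under DMSO, 51.3% under RAC1i and 36.7% under Combo (79.0%, 80.4% and 70.8% without thinning). MDM2 was in 16.0%, 11.8% and 11.0% (52.0%, 39.3% and 38.5% without thinning). BTG2, SESN1 and PLK3 were in at most 3.39% of thinned cells and at most 15.8% of unthinned cells. The culture was 1 cell line, so it held no cell type that lacks these genes and could show how much free RNA adds to a share.

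**Figure D3:**
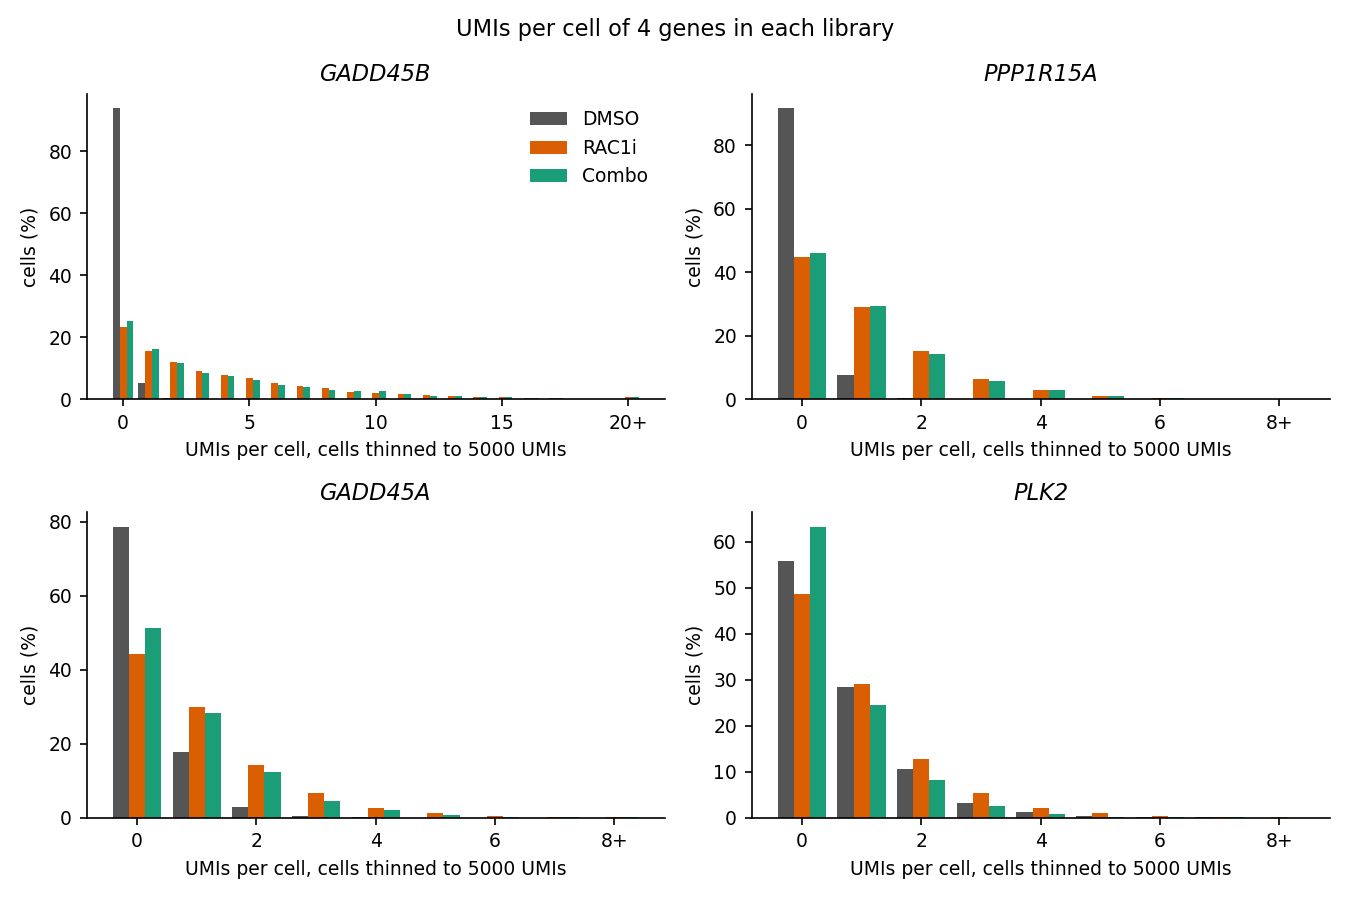
Percent of cells (y) with each number of UMIs of GADD45B, PPP1R15A, GADD45A and PLK2 (x, last bar open-ended) after thinning to 5000 UMIs, in DMSO, RAC1i and Combo. GADD45B is at 0 in 94.0% of DMSO cells and in 23.3% of RAC1i cells, with a long tail. PLK2 shifts less than GADD45B, from 44.1% positive in DMSO to 51.3% in RAC1i and 36.7% in Combo.

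GADD45B, PPP1R15A and GADD45G were found in the same cells of the treated libraries more often than independence gives, and GADD45A less clearly. In RAC1i, GADD45B and PPP1R15A were detected together in 4354 of 9200 thinned cells, where independence gives 3880, and the phi coefficient (a correlation of detected or not) was 0.24. PPP1R15A was in 61.7% of cells with GADD45B and in 33.0% of cells without it. Combo gave the same picture, with 61.0% and 33.6% and a phi of 0.24. In DMSO the phi was 0.01, but observed over expected was 1.17 (0.836 to 1.60), against 1.12 in RAC1i and 1.13 in Combo. Few DMSO cells held either gene, which lowers phi, so these phi values do not show that co-detection was absent in DMSO. Observed over expected has a low ceiling where most cells hold a gene, as with GADD45B in the treated libraries. It therefore does not compare the strength of co-detection between libraries either, and its interval in DMSO included 1. Thinning set every cell to the same total, but cells still differed in their original depth, with which both genes varied in the treated libraries, and its part in the co-detection was not tested. The points are cells of 1 library, so the values describe each library and carry no p.

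GADD45G followed GADD45B. It was in 11.1% of RAC1i cells with GADD45B and in 2.28% of those without, and in 11.3% and 2.52% of Combo cells. In DMSO both were rare, and the count of cells with both was above that of independence at 5000 UMIs (10 against 3.66) but not at 10000 UMIs (11 against 10.4). GADD45A and GADD45B had a phi of 0.12 in RAC1i, 0.07 in Combo and 0.03 in DMSO, and at 10000 UMIs of 0.04, 0.06 and 0.01, where observed over expected was 1.01 in RAC1i (0.992 to 1.03) and 1.02 in Combo (0.996 to 1.04). GADD45A and PPP1R15A had observed over expected counts of 1.03 in both treated libraries, and at 10000 UMIs of 1.01 in both, with intervals that included 1. GADD45A and GADD45G had 1.18 in RAC1i (1.08 to 1.28) and 1.19 in Combo (1.08 to 1.31), and at 10000 UMIs 1.09 (1.03 to 1.16) and 1.07 (0.999 to 1.15). GADD45A and PLK2 had a phi of 0.08 in RAC1i (0.07 at 10000 UMIs). MDM2 showed no such tie to GADD45B, with observed over expected counts of 0.992 in RAC1i (0.928 to 1.06), 0.954 in Combo (0.880 to 1.03) and 1.03 in DMSO (0.795 to 1.30). Among the sparser genes, PPP1R15A and BTG2 had 1.72 in DMSO (1.12 to 2.51) and 1.29 at 10000 UMIs (1.01 to 1.62), a pair named after the values of all 36 were seen. Detecting none of the 9 genes was more frequent than independence gives, 3.75% against 1.73% of RAC1i cells, and so was detecting 5 or more, 5.74% of cells. In DMSO, 30.2% of cells had none against 29.2%.

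**Figure D4:**
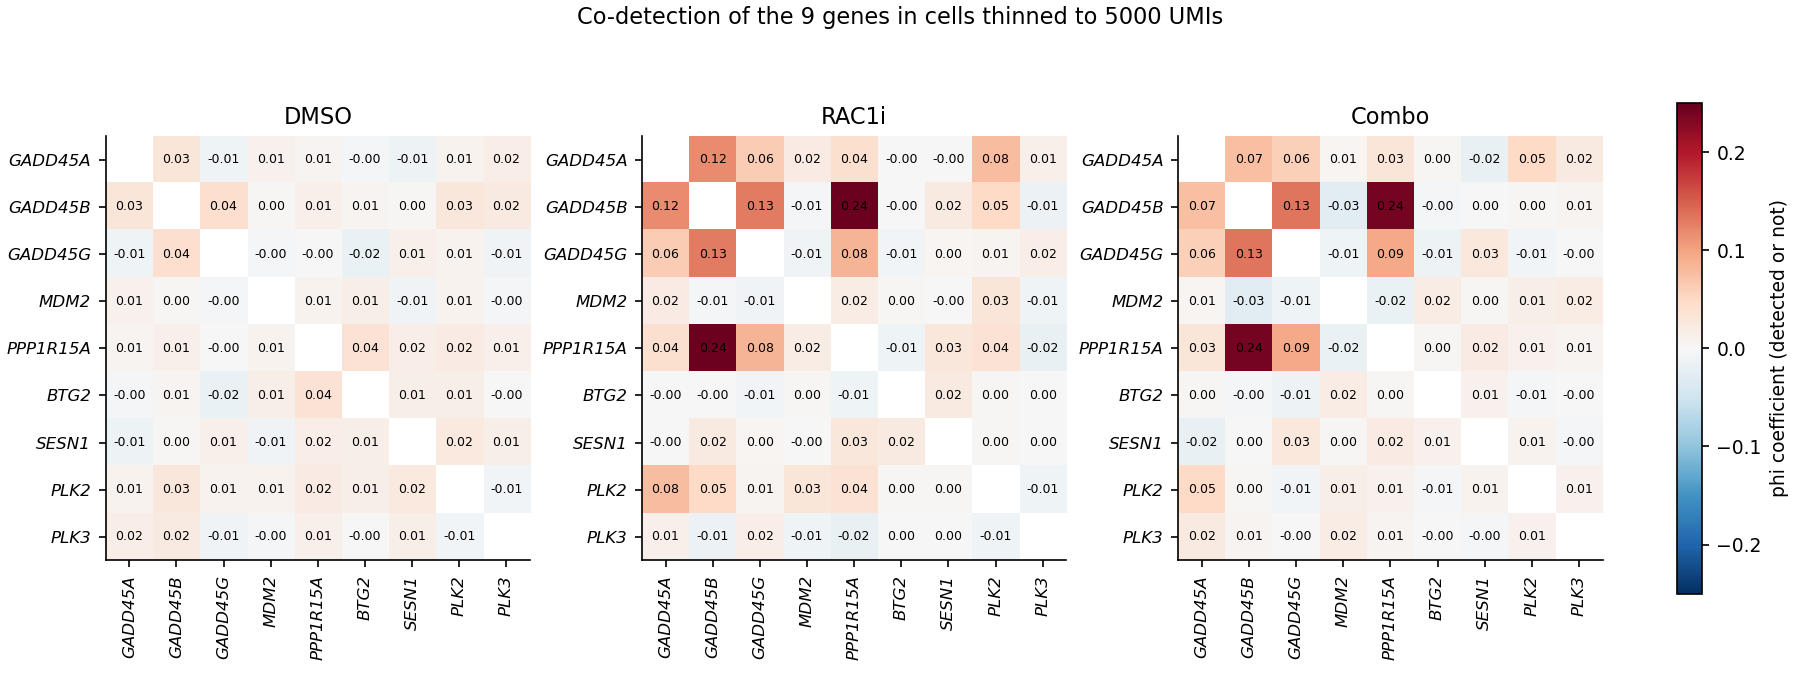
Phi coefficient of detection for the 36 pairs of the 9 genes in cells thinned to 5000 UMIs, for DMSO, RAC1i and Combo (red positive, blue negative). The strongest red entry of both treated libraries is GADD45B with PPP1R15A (0.24), followed by GADD45B with GADD45G (0.13) and GADD45B with GADD45A in RAC1i (0.12), while the rows of MDM2, BTG2, SESN1 and PLK3 stay near 0.

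The genes whose UMIs varied most like each gene across thinned cells were listed by Pearson's r of log2 of UMIs plus 1, among genes with at least 50 CPM. In RAC1i they were JUNB (r = 0.60), the NF-κB inhibitor NFKBIA (0.59) and the transcription regulator ID1 (0.58) for GADD45B, and in Combo NFKBIA (0.61), JUNB (0.61) and MT2A (0.56). In DMSO the highest r with GADD45B was 0.07, also with NFKBIA. GADD45B had a mean of only 0.0678 UMIs per thinned cell in DMSO, against 3.75 in RAC1i. Sparse counts lower r, so these values do not show that such ties were absent in DMSO. For PPP1R15A the most similar gene was GADD45B in RAC1i and in Combo (0.32 in each), and RSRC2 was also among its 3 most similar genes in both. In DMSO it was MALAT1 (0.11), followed by mitochondrial transcripts. For GADD45G the most similar was GADD45B (0.23 and 0.20), and for GADD45A it was HES1 in RAC1i (0.22) and GADD45B in Combo (0.18). PLK2 stood apart: RND3 was first in both treated libraries (0.26 and 0.22) and second in DMSO (0.12), where IGFBP3 was first. No gene reached 0.10 with MDM2 in any library. Thinned to 10000 UMIs, JUNB was first for GADD45B in both treated libraries (0.67 and 0.68) and GADD45B for PPP1R15A (0.43 in each) and GADD45G (0.27 and 0.26). The first gene became ADAMTS5 (RAC1i) and CITED2 (Combo) for GADD45A, and CITED2 for PLK2 in Combo. In DMSO it became CCN1 for GADD45B and RND3 for PLK2 (0.16) and GADD45A (0.11). That of MDM2 changed in both treated libraries. These r values rest on 6725 to 9200 cells that share a library, and weak values in sparse counts were not read as findings.

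**Figure D5:**
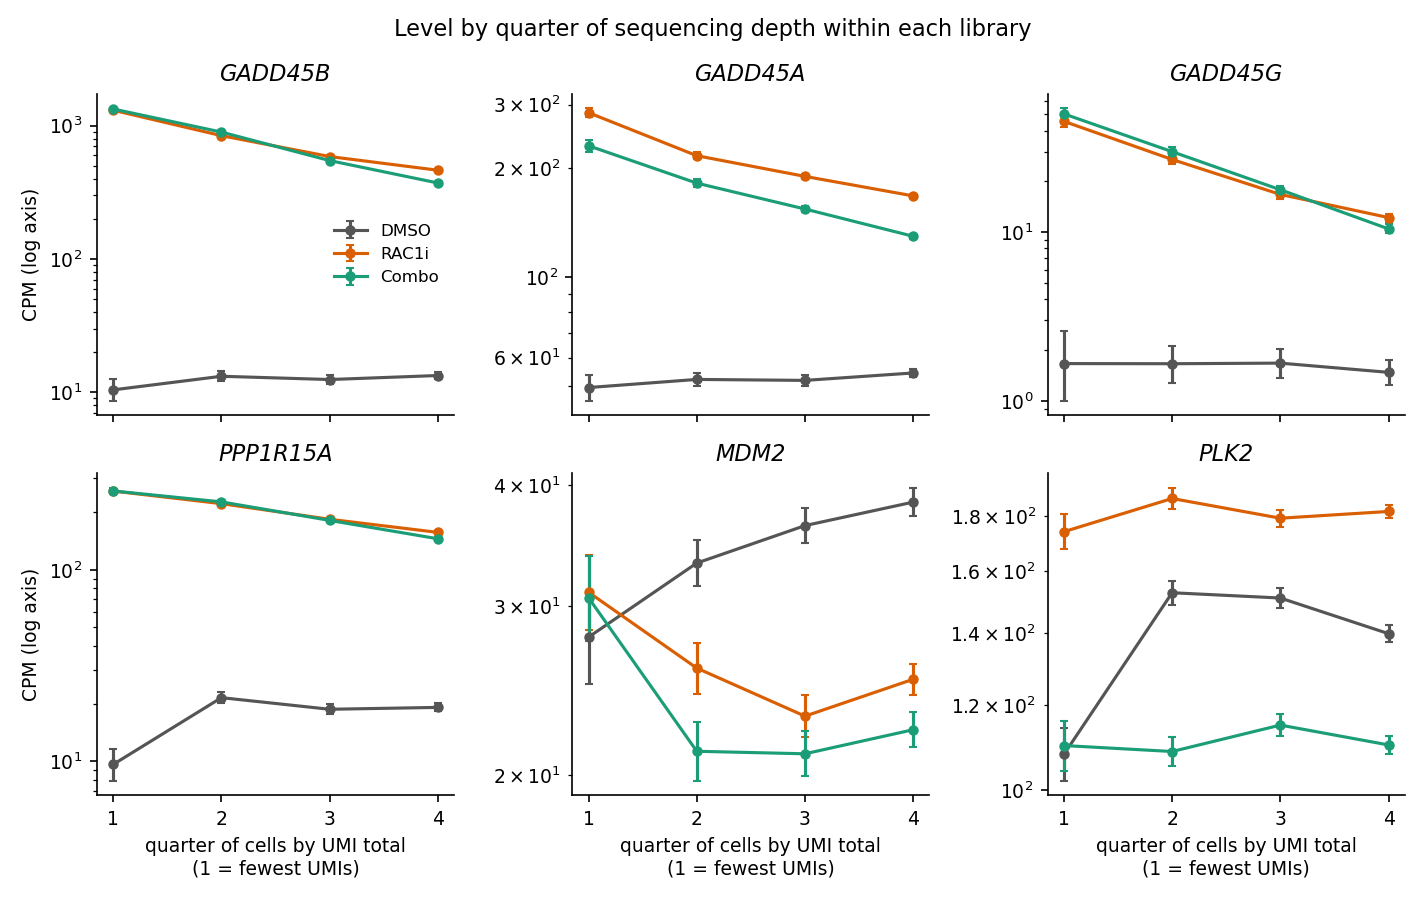
Level (CPM, log axis, 95% Poisson intervals) of 6 genes in 4 equal groups of each library's kept cells ordered by total UMIs, from the fewest (1) to the most (4). GADD45B goes down with depth in RAC1i (1307 to 464 CPM) and Combo (1335 to 372 CPM) but not in DMSO (10.4 to 13.4 CPM), and PLK2 stays between 174 and 187 CPM in RAC1i.

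The level of the higher genes also varied with how many UMIs a cell gave. Kept cells were put in order of total UMIs and divided into 4 equal groups, the shallowest being group 1 and the deepest group 4. From group 1 to group 4, GADD45B went from 1307 to 464 CPM in RAC1i and from 1335 to 372 CPM in Combo, but from 10.4 to 13.4 CPM in DMSO. Group 4 was thus at 0.355 times group 1 in RAC1i (0.349 to 0.360) and 0.279 times in Combo, and at 1.28 times in DMSO (1.06 to 1.56). GADD45G went down more steeply (0.269 and 0.208 in the treated libraries), and GADD45A (0.589 and 0.562) and PPP1R15A (0.609 and 0.563) less steeply. Even so, the 4 genes stood between 2.39 and 128 times their DMSO level in every depth group of both treated libraries, and GADD45B was 125 times DMSO in group 1 of RAC1i and 34.7 times in group 4. PLK2 varied little with depth in RAC1i (1.04) and Combo (1.00), and more in DMSO (1.30). In DMSO, PPP1R15A (1.98) and PLK3 (3.33) were also higher in group 4, which enters the ratios to DMSO by depth group. The cells of group 1 had a median mitochondrial share of 0.922% under DMSO, 3.58% under RAC1i and 4.31% under Combo, so they were not alike in quality, and the part of this in the result was not tested.

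MDM2, BTG2 and PLK3, and PLK2 in Combo, were not clearly lower than DMSO in the shallowest cells. PLK2 in Combo was at 1.02 times DMSO in group 1 (0.943 to 1.10) and at 0.711 to 0.787 times in the other groups. In group 1, MDM2 was at 27.8 (DMSO), 31.0 (RAC1i) and 30.6 CPM (Combo), with overlapping intervals, and it was lower than DMSO in the other 3 groups of both treated libraries (ratios of 0.580 to 0.778). BTG2 was at 0.772 times DMSO in group 1 of RAC1i (0.513 to 1.16) and 0.919 times in Combo (0.606 to 1.39). PLK3 was 3.06 times higher than DMSO in group 1 of RAC1i (2.06 to 4.68) and lower in the others (0.397 to 0.477). Split by mitochondrial share instead, PLK3 was higher in the group of 4 with the largest share than in that with the smallest in all 3 libraries, 2.40 times in DMSO, 2.76 times in RAC1i and 2.33 times in Combo. PPP1R15A split by that share gave 1.89 in DMSO and 0.694 and 0.886 in RAC1i and Combo.

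Across the cell cycle the set was divided in another way. Cells were set apart that held the most UMIs of 20 mitotic genes after thinning, at least 26 UMIs in DMSO (689 cells), 17 in RAC1i (998 cells) and 16 in Combo (745 cells). In these mitotic cells PLK2 was higher than in other cells of the same library by 1.23 times in DMSO (1.19 to 1.27), 1.19 in RAC1i and 1.14 in Combo, and MDM2 by 1.27, 1.16 and 1.19 times. GADD45B was lower there in RAC1i (0.859) and Combo (0.867) and PPP1R15A also (0.794 and 0.819), which was not seen in DMSO (1.06 and 1.05, intervals that include 1). These levels are of unthinned cells. Both genes went down with depth in the treated libraries and up in DMSO, and the part of depth in this contrast was not tested. PLK3 was lower in these cells in DMSO (0.534). In cells set apart alike by 20 DNA synthesis genes, with at least 12, 7 and 7 UMIs, PLK2 was lower in all 3 libraries (0.813, 0.839 and 0.815), and GADD45B too (0.813, 0.743 and 0.670). Those levels too are of unthinned cells, and the part of depth in them was not tested. GADD45B was 39.1 times DMSO in the mitotic cells of RAC1i and 48.2 times in the others. Both sets are ranges of a count and not cell types. For the mitotic genes, 62 cells of DMSO, 85 of RAC1i and 57 of Combo sat at the limit and 69, 88 and 83 just under it, and for DNA synthesis 202, 458 and 324 sat at the limit and 249, 697 and 547 just under it.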

How the data were processed

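Single-cell RNA was measured in OVCAR3 cells in 3 libraries (10x 3′ chemistry, 48 h, 1 per condition). The UMI counts per gene and barcode were made by the authors with Cell Ranger 4.0.0 on GRCh38 and deposited without normalization. The libraries were matched to conditions by their labels. A cell needed more than 1000 detected genes, a mitochondrial share of 20% or less and a complexity (log10 genes over log10 UMIs) above 0.8. No doublet caller was run, and leaving out the 8% deepest cells was tried instead. UMIs were summed over kept cells and scaled to CPM with exact Poisson 95% intervals. Ratios of levels carry exact conditional intervals and shares Clopper-Pearson intervals, which cover counting error only. For pairs, the interval is that of the share of cells with both genes, divided by the expected share held fixed. Ratios of single genes have no pseudocount, and lists, ranks and the median gene use log2(CPM + 1) unless stated otherwise. A gene counted as 2-fold with a CPM ratio of at least 2 (or its inverse) and at least 10 CPM in the higher library. No comparison across libraries was tested, since each condition had 1 library. Shares, pairs and correlations used cells thinned to 5000 UMIs. Ratios of levels and their intervals were tested on simulated data. For pairs only the median observed over expected count of independent genes was tested so, and the intervals of pairs and shares were not. UMIs are not scaled by gene length, so levels were compared between libraries and not between genes.

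The 9 genes and all gene lists were chosen with earlier results of these data known. Genes named beyond the 9 were their 12 paralogs, CDKN1A, RAC1, EZH2, the CDD markers, the highest and lowest ratio of each list, and the 3 most similar genes of each; others are marked as named after their values were seen. Some results that the naming rule covers are not reported here. Gene positions are from GENCODE 44 and promoters from RefSeq, both on GRCh38. Python 3.11.15, numpy 2.4.6, scipy 1.17.1 and pandas 2.3.3 were used, with edgeR 4.0.16 (TMM) and DESeq2 1.42.0 (size factors) under R 4.3.3 for other scalings of the summed counts.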

Additional observations from a re-analysis of the deposited data

Results flagged for a closer look

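The barcodes that did not pass the limits on cells were used above in the alternative with every deposited barcode and for the level of GADD45B beside its shares. In both treated libraries, 5 of the 9 genes were above their DMSO level there. The share of all genes above it is not given here, so nothing is read from this count. There were 2540 such barcodes in DMSO, 1557 in RAC1i and 1518 in Combo, with a median of 1810.5, 1462 and 1588 UMIs and a median mitochondrial share of 40.0%, 12.8% and 11.2%. Together they held 8285672, 19891175 and 27661804 UMIs. The levels below are of these sums, in which the deeper barcodes weigh most, so they do not describe the median barcode. GADD45B stood at 653 CPM in the removed barcodes of RAC1i and 524 CPM in those of Combo, against 9.29 CPM in those of DMSO. PPP1R15A stood at 204 and 180.1 CPM against 10.4 CPM, and GADD45A at 159 and 127 CPM against 34.0 CPM. GADD45G stood at 23.3 and 20.8 CPM against 1.57 CPM. PLK2 measured 197 CPM (RAC1i) and 112.0 CPM (Combo) against 85.9 CPM in DMSO, so in these barcodes Combo lay above DMSO, while in kept cells it lay below. Mitochondrial UMIs are part of the total that CPM is scaled to, and their median share was largest in the removed barcodes of DMSO. The part of this in these levels was not tested. What these barcodes held (damaged cells or free RNA) was not tested.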

How the results depend on the processing

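Each ratio of the 9 genes was computed under 9 other settings (TMM or DESeq2 scaling, every deposited barcode, a mitochondrial limit of 10%, cells of 10000 to 40000 UMIs, no 8% deepest cells, thinning to 5000 UMIs, a mean over cells, and a total without mitochondrial genes). No ratio of at least 2-fold changed direction, and 86 of 243 values moved by more than their counting interval. GADD45B stayed between 5.53 and 6.09 on the log2 scale for RAC1i over DMSO, PPP1R15A between 3.21 and 3.59, MDM2 between -0.59 and -0.34 and PLK2 between 0.27 and 0.45, and PLK2 for Combo over RAC1i between -0.71 and -0.68. The signs of small differences were not stable: SESN1 for Combo over DMSO kept its sign in 5 of 9 settings and reached 0.15, and with cells of 10000 to 40000 UMIs GADD45B (0.04) and PPP1R15A (0.03) were slightly higher in Combo than in RAC1i. With no minimum CPM, the count of the 9 genes at least 2-fold lower was 2 for RAC1i over DMSO and 2 for Combo over DMSO in place of 0 (BTG2 and PLK3), since genes under 10 CPM then enter, and the share of all genes at least 2-fold higher went from 13.1% to 32.7% and from 11.8% to 30.9%, and that of lower genes was then 25.6% and 25.7%, near the 2 of 9. Shares of positive cells moved with the thinning depth in all 81 cases. With thinning to 10000 UMIs, observed over expected cells with both GADD45B and PPP1R15A were 1.08 in RAC1i and 1.07 in Combo, against 1.12 and 1.13 at 5000 UMIs. Phi for this pair instead went from 0.24 to 0.29 in RAC1i and from 0.24 to 0.26 in Combo. Observed over expected has a lower ceiling as more cells hold a gene, so its fall does not show a weaker tie. The excess for GADD45A with GADD45B, and in DMSO for GADD45B with GADD45G, had an interval that included 1 at 10000 UMIs. That interval holds the expected count fixed, so it does not show that an excess was absent. TMM put the median gene at -0.11 and -0.08 (RAC1i and Combo over DMSO) and DESeq2 at -0.07 and -0.04. No paired analysis was possible because each condition had 1 library. Leaving out a replicate was not possible for the same reason. Depth limits BTG2, SESN1 and PLK3, which were under 10 CPM in all 3 libraries.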
